A study of Homo sapiens with 2 samples.

Results

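The weakest ETV4 peaks at the ends of protein-coding genes were described in A549 cells. A peak was chosen by its measured fold, the read pileup at the summit over the input level with 1 added to both. It was taken when that fold was below 5, when its summit lay within 1 kb of an end of exactly 1 protein-coding gene, and when that gene had no peak of fold 5 or more within 1 kb of either end. These 765 weak peaks, of 54389 in all, lay at 746 genes, of 20037 protein-coding genes. Of all peaks 18% had a fold below 5, as had 10.6% of the 9434 peaks at the end of exactly 1 gene. Genes with a stronger peak made up 53.6% of the protein-coding genes and the 746 genes with weak peaks 3.72%. Of 1182 weak peaks at gene ends, 182 were at the ends of several genes and 235 were at a gene that also had a stronger peak, and both groups were left out.

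The study asked where on chromatin ETV4 sits in non-small cell lung cancer (NSCLC), with replication origins and the genes of the replication machinery in view. A549 is an established human lung adenocarcinoma line. In these cells the endogenous ETV4 had been knocked down with a short hairpin RNA and Flag-tagged ETV4 was put back from a transfected plasmid, so the peaks report tagged protein from a plasmid. There was 1 Flag immunoprecipitate and 1 input without antibody, and no replicate of either, so no difference between conditions could be tested. Intervals given here cover counting error only. Reads were amplified by PCR and carried no molecular identifiers, so they are not independent molecules.

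ETV4 belongs to the PEA3 group of ETS transcription factors, which are known for activating genes of growth, migration and invasion downstream of ERK signalling. ETS factors hold a conserved DNA-binding domain that reads a GGAA core, and many of them favour the longer form CCGGAAGT, which is frequent in promoters rich in CpG. The word CCGGAAGT is called the ETS motif below and CGGAAG, which lies inside it, the ETS core. Both were searched on both strands.

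The promoter letters around 6 weak peaks are shown because they span what was found under the summits. In ZNF222, ZNF551, PSMD12 and ZKSCAN7 an ETS motif lay within 50 bases of the summit. These were all 4 such weak peaks among those where promoter letters at the summit were available. COPS8 and POLD2 held neither GGAA nor TTCC in the shown letters. Sequences are from RefSeq on GRCh38.p14, read 5′ to 3′ on the strand of the gene, and the capitals mark the motif, here as its reverse complement in each case.
ZNF222: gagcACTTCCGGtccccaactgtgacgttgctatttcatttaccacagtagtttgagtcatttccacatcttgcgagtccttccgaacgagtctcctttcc
ZNF551: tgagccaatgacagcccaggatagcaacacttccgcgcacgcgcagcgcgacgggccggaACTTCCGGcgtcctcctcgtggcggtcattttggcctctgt
PSMD12: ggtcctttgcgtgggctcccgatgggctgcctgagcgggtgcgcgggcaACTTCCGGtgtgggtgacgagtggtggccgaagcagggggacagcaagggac
ZKSCAN7: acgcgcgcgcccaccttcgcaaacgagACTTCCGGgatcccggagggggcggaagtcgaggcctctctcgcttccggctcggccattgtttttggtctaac
COPS8: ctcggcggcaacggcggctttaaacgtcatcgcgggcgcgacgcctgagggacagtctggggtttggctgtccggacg
POLD2: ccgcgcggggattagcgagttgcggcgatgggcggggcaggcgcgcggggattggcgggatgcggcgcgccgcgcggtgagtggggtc

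ZNF222 and ZNF551 encode zinc finger proteins on chromosome 19, and ZKSCAN7 a zinc finger protein with a SCAN domain. The ZNF222 stretch was chr19:44025316-44025416 on the plus strand, with the motif 39 bp from the summit. The ZNF551 stretch was chr19:57681920-57682020 on the plus strand, with the motif 10 bp away. PSMD12, a regulatory subunit of the proteasome, was shown over chr17:67366535-67366635 on the minus strand, and its summit lay within the motif. The ZKSCAN7 stretch was chr3:44555124-44555224 on the plus strand, with the motif 16 bp from the summit. COPS8, a subunit of the COP9 signalosome, was shown over chr2:237085861-237085938 on the plus strand. POLD2, a subunit of DNA polymerase delta, was shown over chr7:44123499-44123586 on the minus strand. The last 2 stretches stopped at the edge of the available promoter window, after 78 and 88 bases, while the other 4 had 101 bases.

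The weak peaks rested on few reads. Their pileup at the summit had a median of 11 reads and ran from 6 to 32. The control level, the number of reads the peak caller expected there from the input, had a median of 2.03 and ran from 1.28 to 8.10. Its lowest value was shared by 151 of the weak peaks (19.7%), so input levels were not told apart among them. The fold had a median of 4.22 and ran from 2.45 to 4.999, the −log10 q had a median of 4.44 and ran from 1.30 to 11.2, and the width had a median of 368 bp and ran from 224 to 2426 bp. The 8434 peaks of fold 5 or more at the end of exactly 1 gene, called strong peaks here, had a median pileup of 52, a median fold of 17.2 and a median width of 1017 bp. Their median control level was 2.03, the same as at the weak peaks, and 65.3% of them lay above the median control level of all peaks, as did 65.2% of the weak ones. The upper quartile of the control level was 3.03 at weak and 2.70 at strong peaks, and strong peaks of fold 5 to 7 had a median of 1.77. So weak and strong peaks were alike in the median control level but not over its whole range. They differed in the pileup, which the choice by fold used. In 736 of the 765 weak peaks (96.2%) the exact Poisson 95% interval of the pileup reached the pileup that would have given a fold of 5, so the side of the threshold on which most of these peaks fell was within counting error.

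**Figure D1:**
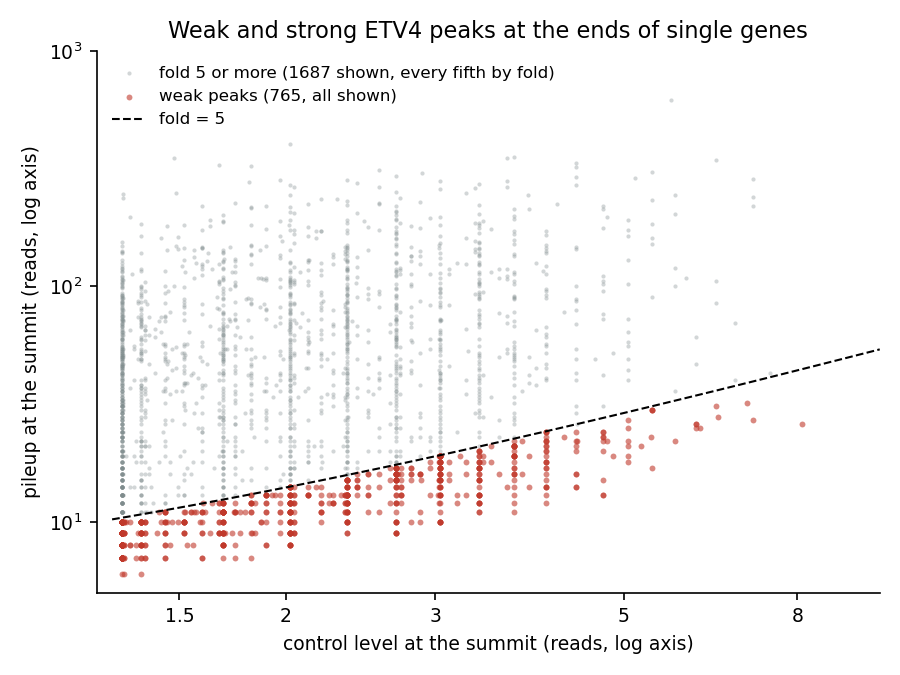
Each point is a peak at the end of exactly 1 protein-coding gene, with the control level at its summit in reads on the x axis and the pileup in reads on the y axis, both log axes. The weak peaks (red, all 765) had pileups of 6 to 32 below the dashed line at fold 5, and strong peaks (grey, 1687 shown) spanned the same control levels above it.

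The highest −log10 q among the weak peaks, 11.2, was shared by USP5, CCDC167 and ZNF155. Each of these peaks had a pileup of 30 over a control level of 5.40 and a fold of 4.84. USP5 encodes a deubiquitinase that takes apart free polyubiquitin chains, and its peak at chr12:6851605-6852810 covered 1206 bp. PSMC4, an ATPase subunit of the 19S proteasome particle, followed with −log10 q 10.04 and a pileup of 31 over 6.41. RDH11, a retinol dehydrogenase, had −log10 q 9.79 and the highest pileup of all weak peaks, 32 over 6.98. These strong q values stood at high control levels, where more reads are needed for the same fold. At the low end were RBM23, with −log10 q 1.30 from a pileup of 7 over 1.82, ZNF177, with 1.37 from 6 over 1.35, and SLC18A3, SLC25A45 and ZNF280B, each with 1.37 from 9 over 2.70. SLC18A3 encodes the vesicular acetylcholine transporter. The SLC25A45 summit lay 885 bp upstream of the outermost 5′ end of its gene. A peak of fold 5 or more lay 2106 bp from it, and 1 such peak lay inside the gene. Just under the threshold were GNA15, a G protein alpha subunit of blood cells, with a fold of 4.999 (12 reads over 1.60), C14orf93 and FAM131C with 4.96 each (13 over 1.82), and S1PR5, a sphingosine-1-phosphate receptor, with 4.96 (11 over 1.42). GLE1, an mRNA export factor, had a fold of 4.96 as well, from 16 reads over 2.43. Just above it were MDC1, a mediator of the DNA damage checkpoint, with 5.001 (26 over 4.40), HNRNPUL1 with 5.01 (26 over 4.39), and DNAAF3, EIF1AX and EMD with 5.01 each (12 over 1.59). The named peaks just below the threshold had 11 to 16 reads and those just above it 12 to 26, so their read numbers overlapped.

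Most weak peaks lay at the 5′ end of their gene, where transcription starts. The strand was known for 627 of them, and in 548 (87.4%, Wilson 95% interval 84.6 to 89.8) the nearest end was the 5′ end. Of the strong peaks, 6289 of 6795 (92.6%) were nearest to the 5′ end, a difference of −5.15 percentage points (Newcombe 95% interval −8.04 to −2.69). In genes longer than 20 kb the shares were 91.4% and 95.6%, a difference of −4.14 points (−7.59 to −1.56). The lower share was not particular to fold below 5. Strong peaks of fold 5 to 7 had 83.8% at the 5′ end, which was 3.56 points below the weak peaks, with an interval of the difference from −0.104 to 7.097. Of the weak peaks with −log10 q of 5 or more and a known strand, 93.5% were nearest to the 5′ end, 0.960 points above the strong peaks that passed the same minimum (−3.59 to 3.77).

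Weak peaks nearest to a 5′ end had a median position 107 bp downstream of it, and 35.9% lay upstream. Those of the strong peaks had a median of 113 bp, and 33.6% lay upstream. A summit within 250 bp of a gene end was found in 53.99% of weak and 51.5% of strong peaks (difference 2.45 points, −1.25 to 6.11). Very close to an annotated start, within 50 bp, were 12.1% of weak and 17.1% of strong peaks (difference −4.99 points, −7.49 to −2.07), and 12.97% of those of fold 5 to 7 (difference −0.850 points, −4.21 to 2.64). The interval of the peak contained a gene end in 46.01% of weak and 80.6% of strong peaks, beside their median widths of 368 and 1017 bp. Inside the body of the gene lay 483 of the 765 weak summits (63.1%) and 64.9% of the strong ones (difference −1.79 points, −5.41 to 1.71, which includes 0).

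**Figure D2:**
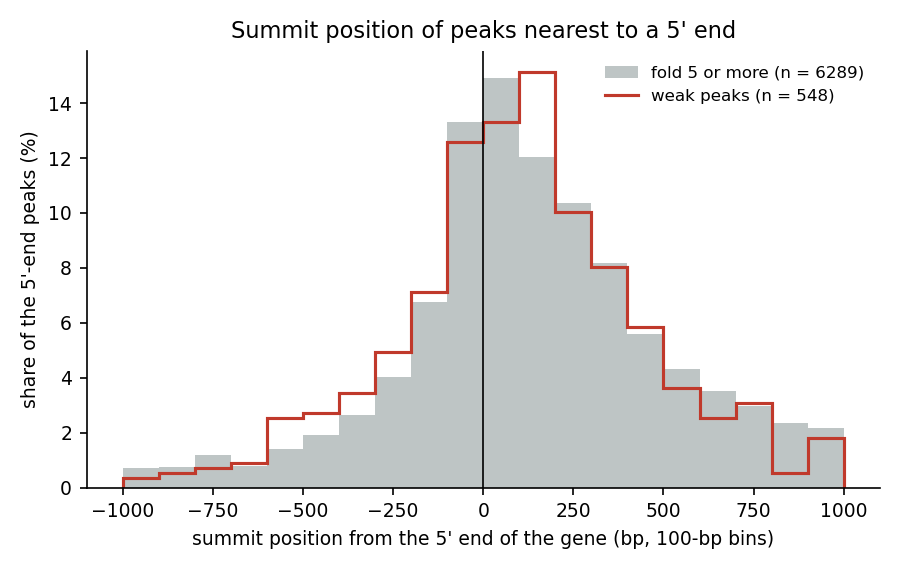
The share of peaks nearest to a 5′ end is plotted against the summit position in bp from that end, in bins of 100 bp, for 548 weak peaks (red line) and 6289 strong peaks (grey). Both were densest around the start, with medians of 107 and 113 bp downstream.

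The 79 weak peaks nearest to a 3′ end had a median pileup of 10 and a median control level of 1.63, against 11.5 and 2.03 for the 548 at 5′ ends. Of the former 35.4% and of the latter 17.3% stood at the lowest control level in the file. The 3′ group included the perilipin gene PLIN5, the elastic fibre gene FBLN5 and CYP2A7, with pileups of 19, 17 and 26. CYP2A7 has near-identical neighbours in its gene cluster, so its reads are uncertain. For 138 weak peaks the strand was not known, 24 of them on chromosome 8.

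The ETS motif was less frequent in the promoters of genes with weak peaks than in those of genes with a strong peak. Promoter windows, from 250 bases before to 50 after an annotated start, were at hand for 612 of the 746 genes. A motif was found in 38 of them (6.21%, Wilson 95% interval 4.56 to 8.41) and in 915 of 8757 genes with a strong peak (10.4%), a difference of −4.24 points (Newcombe 95% interval −6.02 to −1.95). The share was 2.26% of 6291 genes with no peak at an end and 6.97% of all protein-coding genes with a window. Genes with weak peaks thus lay between genes with no peak and genes with a strong one. The core CGGAAG was found in 27.6% against 39.6% (difference −12.0 points, −15.5 to −8.19). The genes of strong peaks that, like the weak ones, were at the end of no other gene held the motif in 8.28% (difference −2.07 points, −3.87 to 0.218, which includes 0) and the core in 36.1% (difference −8.51 points, −12.1 to −4.65).

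The letters under the summit were compared where the summit was inside a window. Letters beyond the window were not available, so at summits near its edge fewer than 50 bases were searched on that side. This holds for weak and strong peaks, and the shares within 50 bases may be too low. Of 169 such weak peaks, 4 (2.37%, 0.924 to 5.93) had the motif within 50 bases, against 228 of 2144 strong peaks (10.6%), a difference of −8.27 points (−10.3 to −4.50). The core was there in 18.9% against 34.2% (difference −15.3 points, −20.8 to −8.39). By contrast the short word GGAA, which is common by its length, was within 50 bases of 73.96% of weak and 79.8% of strong summits (difference −5.79 points, −13.1 to 0.488, which includes 0). Anywhere in the window the motif was found at 7 of the 169 weak summits (4.14%) and 316 of 2144 strong ones (14.7%). The difference was −10.6 points (−13.2 to −6.20). Of all 35116 promoter windows 4.14% held it, a set that is unlike the weak peaks. It includes 12917 windows of genes that are not protein-coding, of which 2.07% held the motif. Strong peaks of fold 5 to 7 had the motif within 50 bases in 5.75% and the core in 25.7%, which differed from the weak peaks by −3.39 (−7.49 to 0.886) and −6.73 points (−14.7 to 1.69). A difference between weak peaks and those just above the threshold was therefore not detectable at this number of peaks.

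**Figure D3:**
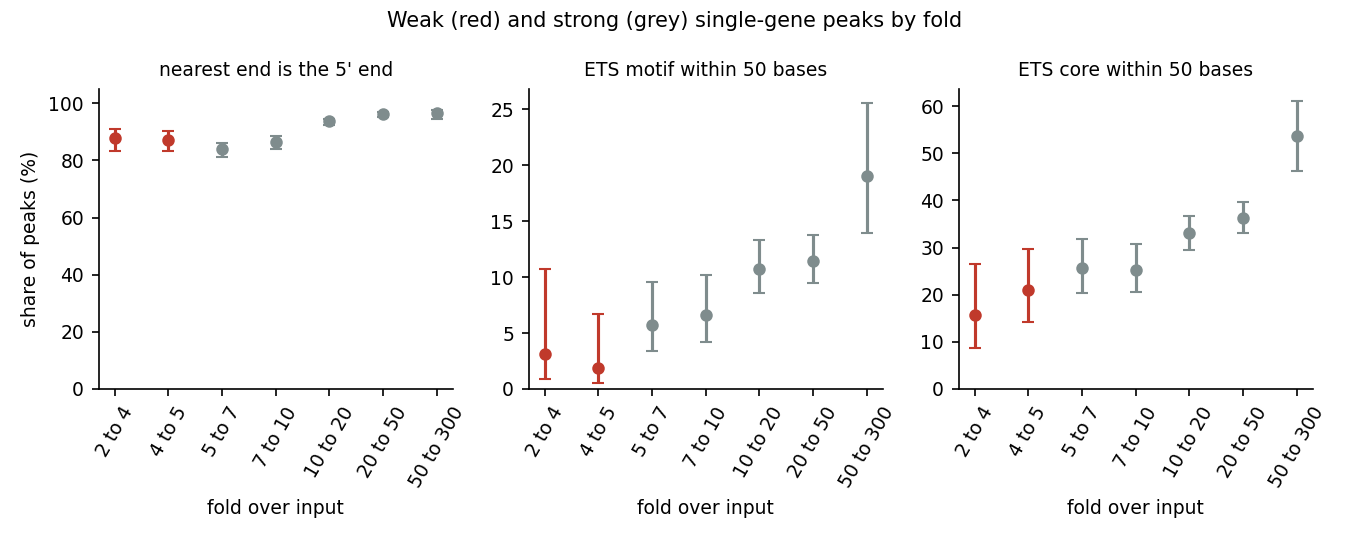
The y axes give the share of peaks in percent, with Wilson 95% intervals, for which the nearest end was the 5′ end (left), with an ETS motif (middle) and with an ETS core (right) within 50 bases of a summit inside a promoter window, over bins of fold on the x axis. Weak peaks (red) had motif shares of 3.13% at fold 2 to 4 and 1.90% at fold 4 to 5, and strong peaks (grey) 5.75% at fold 5 to 7 and 19.1% at fold 50 to 300.

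Base composition moved with these shares. The promoter windows of genes with weak peaks had a median of 62% G and C, those of strong genes 65.3% and those of genes with no peak 56.3%. Their ratio of observed to expected CpG had medians of 0.755, 0.823 and 0.427. Among genes with at least 1 window of a ratio above 0.6, the motif was found in 7.53% of 478 genes with weak peaks and 11.4% of 7821 genes with a strong peak, a difference of −3.86 points (−6.03 to −1.06). Among genes with no such window it was found in 1.49% of 134 and 2.56% of 936 (difference −1.07 points, −2.70 to 2.81, which includes 0). The core was found in 31.6% against 42.002% of genes with such a window (difference −10.4 points, −14.6 to −5.98) and in 13.4% against 19.7% of genes without one (difference −6.23 points, −11.7 to 0.995). The part of base composition in the shares within 50 bases of the summit was not tested.

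Genes with weak peaks were spread over many functions. Each function list here is a set of gene symbols, and its share is to be read against the 3.72% of all protein-coding genes that had weak peaks, or the 6.37% of all genes with a peak. Of 36 lists, 21 had a share above 3.72%, and in 16 the share of genes with a peak was above 6.37%. The lists held 334 of the 746 genes (44.8%) and 42.2% of all protein-coding genes. Shares of all genes of a list were highest for ribosome biogenesis (8.33%), zinc finger transcription factor genes (7.99%), cytosolic ribosomal proteins (7.95%) and centrosome and cilium genes (7.39%). The lists of ribosomal proteins and ribosome biogenesis rest on 7 genes each. Over genes with a peak the order differed. It was led by keratin and epidermal genes (31.8%, 7 genes), protocadherin genes (21.4%, 3 genes) and detoxification enzymes (19.05%, 12 genes). No gene of the apoptosis list was among the 746, while 37 of its 53 genes had a strong peak and 16 none. At a share of 3.72% only a few of 53 genes would be among them, so this absence is not read as a result.

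**Figure D4:**
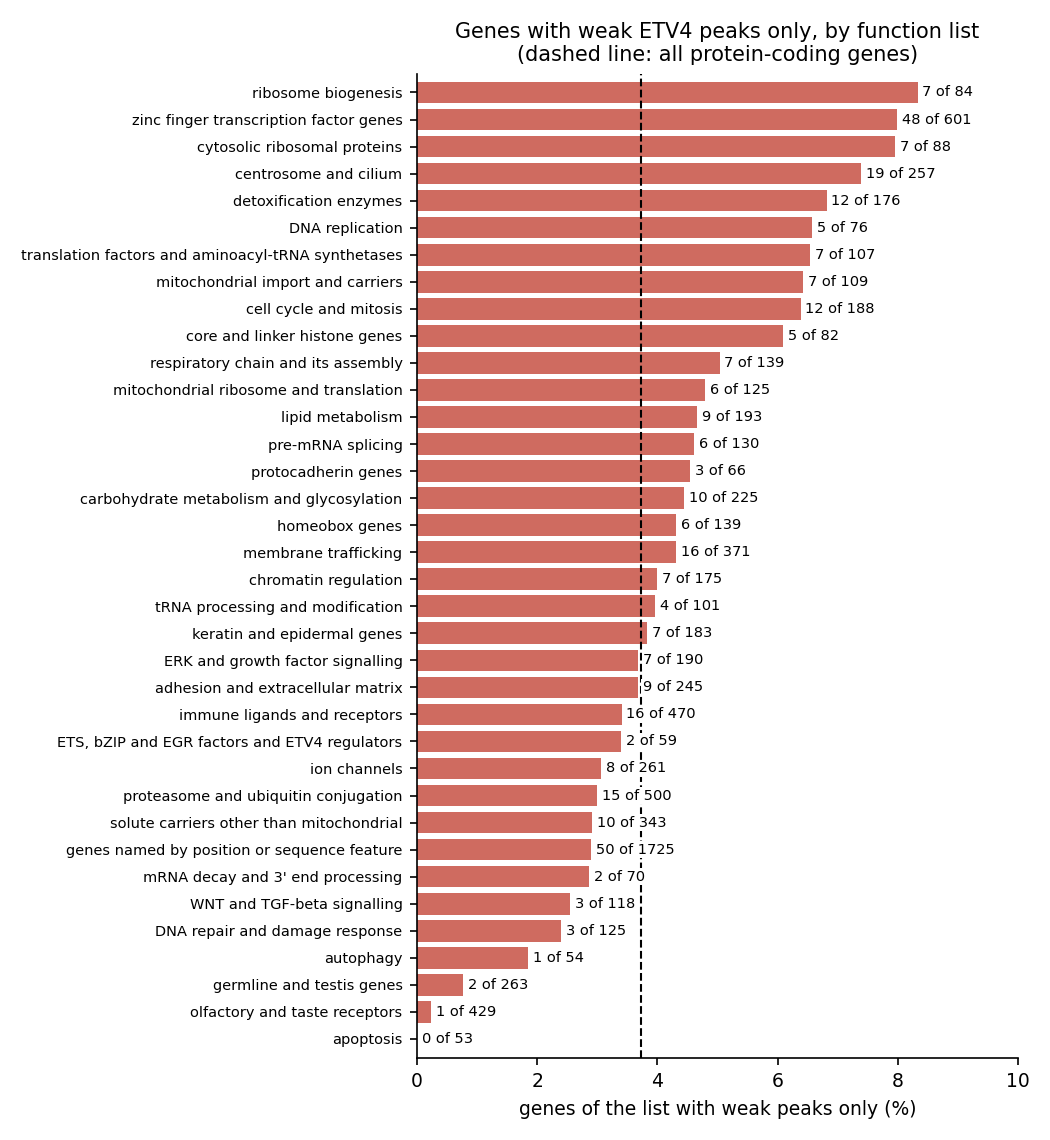
Bars give, for each of 36 function lists, the percent of its protein-coding genes that had weak peaks and no stronger one, with the count beside each bar, and the dashed line marks the 3.72% of all protein-coding genes. Shares ran from 0 of 53 apoptosis genes to 7 of 84 ribosome biogenesis genes.

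Of 76 DNA replication genes 5 (6.58%) had weak peaks, while 62 had a strong peak, 2 had a weak peak shared with another gene and 7 had none. The 5 were 7.25% of the DNA replication genes with a peak, close to the 6.37% of all genes with a peak. All 5 lay at the 5′ end. MCM10, an initiation factor that helps to activate the replicative helicase, had a peak at chr10:13161082-13161642, 217 bp upstream of its 5′ end, with 11 reads over a control level of 2.03 and a fold of 3.97. POLD2 had 22 reads over 3.79 and a fold of 4.80, 12 bp downstream of an annotated start and 789 bp from the outermost 5′ end. GINS1, part of the helicase complex, had 15 reads over 2.70 and a fold of 4.32, 58 bp upstream. The clamp loader genes RFC5 and RFC3 had 9 reads over 2.03 and 8 reads over 1.35, with folds of 3.31 and 3.83. POLD2 had the most reads of the 5 and RFC3 the fewest, and no peak of fold 5 or more lay within 60 kb of MCM10, the nearest being 61169 bp away. Among the other replication genes the study singled out, MCM2 had a weak peak of fold 4.84. It was shared with another gene and so was left out. ORC1 had no listed peak within 1 kb of an end, and MCM4 and MCM5 had peaks of fold 17.1 and 5.68. From the same sequencing the study reported ETV4 enrichment at the promoters of MCM2, MCM4, MCM5, MCM10 and ORC1. It added PCR on immunoprecipitated chromatin, at the MCM4 origin in the same A549 cells and at the 5 promoters in other cell lines. It also added promoter reporter assays, and mRNA and protein measurements of the 5 genes after ETV4 knockdown or overexpression. The lack of a listed peak at ORC1 does not show that ETV4 is absent there.

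In the cell cycle and mitosis list 12 of 188 genes (6.38%) had weak peaks, which was 7.74% of those with a peak. TTK, a kinase of the spindle checkpoint, had 25 reads over 5.06 and a fold of 4.29. SPC24, a subunit of the kinetochore complex that binds microtubules, had 17 over 3.38 and a fold of 4.11. CCNB1, the mitotic cyclin B1, had 14 over 2.43 and a fold of 4.38, 162 bp inside the gene, and KIF14, a kinesin of cytokinesis, had 13 over 3.04 and a fold of 3.47. The remaining peaks of the list had 9 to 12 reads. The DNA repair list held 3 of 125 genes (2.4%), with 84.0% of the list under a strong peak. These were RIF1, which directs the choice of repair pathway, with 23 reads over 4.25, RAD54L, a motor of homologous recombination, with 17 over 2.70, and ERCC4, an endonuclease subunit of nucleotide excision repair, with 12 over 2.03.

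**Figure D5:**
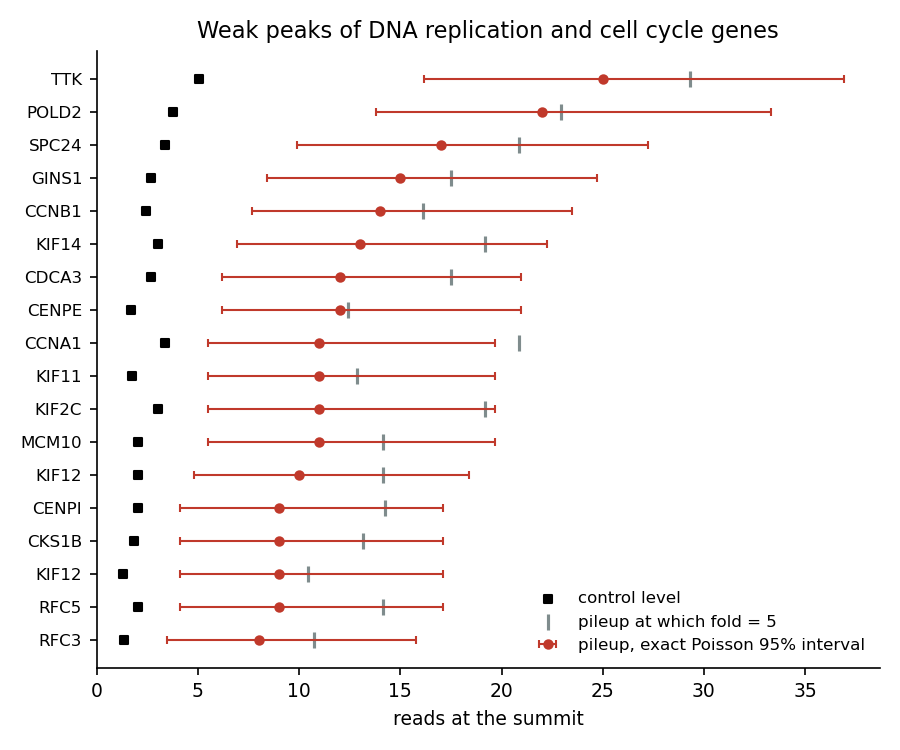
Reads at the summit are plotted for the weak peaks of the DNA replication and cell cycle lists, with the pileup and its exact Poisson 95% interval (red), the control level (black squares) and the pileup at which the fold would be 5 (grey ticks). Pileups ran from 8 reads in RFC3 to 25 in TTK.

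Genes of protein synthesis made up another group. Counted over genes with a peak, the share was 8.97% for cytosolic ribosomal proteins and 9.86% for ribosome biogenesis. It was 7.37% for translation factors and synthetases and 4.60% for tRNA processing, beside 6.37% of all genes with a peak. Cytosolic ribosomal protein genes with weak peaks numbered 7 of 88, and RPS12, with 2 such peaks, had 15 reads over 2.36 and 12 over 3.19. RPS3A had 14 over 2.36, 8 bp upstream of its 5′ end, and RPL37A and RPL31 had 13 each, over 3.04 and 2.35. Ribosomal protein genes have many processed copies, so reads in their transcribed part are uncertain. The summits at RPS3A, RPL37A (63 bp) and the RPS12 peak of 12 reads (297 bp) lay upstream of the 5′ end. Of ribosome biogenesis genes, RRP1 had 17 reads over 3.38, WDR74 14 over 3.03, the late 40S kinase gene RIOK2 13 over 2.70 and LTV1 12 over 2.03. The WDR74 summit lay 703 bp inside the outermost 5′ end of the gene and within 1 kb of an end of RNU2-2. It lay over 1 kb upstream of the nearest WDR74 start with a promoter window. A peak of fold 5 or more lay 1465 bp from this summit, and 1 such peak lay inside the gene. Translation factor and aminoacyl-tRNA synthetase genes numbered 7 of 107 (6.54%). Among them EIF2AK1, a stress kinase that phosphorylates a translation initiation factor, and LARS1, the leucyl-tRNA synthetase, had 21 reads each, over 4.05 and 3.71. EIF5A2 had 17 over 2.70 and EIF2B3, a subunit of the exchange factor of eIF2, 16 over 3.38. In the tRNA processing list 4 of 101 genes had weak peaks, with RPP21, a subunit of RNase P, at 22 reads over 5.74.

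Genes for mitochondrial proteins had shares from 4.80% to 6.42% of all genes of their lists. Counted over genes with a peak, the share was 5.61% for mitochondrial ribosome and translation. It was 6.25% for the respiratory chain and 7.61% for import and carriers, beside 6.37% of all genes with a peak. Of 139 respiratory chain genes 7 had weak peaks. UQCRFS1, the Rieske subunit of complex III, had 25 reads over 6.14, NDUFB7, a subunit of complex I, 20 over 4.05, LYRM7, an assembly factor of complex III, 18 over 3.03, and CYC1, cytochrome c1, 15 over 3.04. In the import and carrier list (7 of 109) the outer membrane pore gene TOMM40 had 22 reads over 4.78 and the fusion gene MFN2 17 over 3.04. In the list of mitochondrial ribosome and translation (6 of 125), MRPS15 had 21 reads over 3.71 and the threonyl-tRNA synthetase gene TARS2 15 over 2.70.

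The zinc finger list was the largest named function among the genes with weak peaks, with 48 of 601 genes. These genes encode DNA-binding proteins, many with a KRAB domain that recruits a repressor complex. ZNF155 had 30 reads over 5.40, ZNF222 26 over 8.10, ZSCAN21 25 over 6.08 and ZNF454 22 over 3.71. The control level of 8.10 at ZNF222 was the highest at any weak peak, and its fold was 2.97. Of the 48 genes 18 lie on chromosome 19, where clusters of such genes are found. There 18 of 264 listed genes (6.82%) had weak peaks, against 30 of 337 (8.90%) on the other chromosomes and 65 of 1187 genes (5.48%) of chromosome 19 outside the list. Chromosome 19 as a whole had 83 genes with weak peaks (5.72%), and chromosome 18 had 1 of 270 genes (0.370%). Paralogues of this family are alike in their zinc finger exons, and the handling of reads that align to several places is not given in the sources used here.

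Of the genes of the centrosome and cilium, 19 of 257 had weak peaks. The beta tubulin gene TUBB had 21 reads over 5.06, 12 bp upstream of its 5′ end, DNAH5, a dynein heavy chain of motile cilia, 18 over 3.38, CEP162 16 over 3.11 and the augmin gene HAUS5 16 over 3.56. Of 500 genes of the proteasome and ubiquitin conjugation, 15 had weak peaks (3.00%). Beside PSMC4 and USP5, COPS8 had 23 reads over 4.73 and the SUMO protease gene SENP2 19 over 3.71. Both peaks of PSMD12 were weak, with 12 reads over 3.38 and, at the motif shown above, 10 over 2.03. In membrane trafficking 16 of 371 genes (4.31%) had weak peaks, which was 5.30% of those with a peak. Among them were the exocyst gene EXOC7 with 18 reads over 3.26 and RAB8A with 15 over 3.03 and 13 over 3.71. RAB8A is a small GTPase of ciliary and polarised transport.

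Regulators of chromatin had weak peaks at 7 of 175 genes (4%), which was 4.86% of those with a peak. KDM1A, a demethylase of histone H3, had 16 reads over 3.71 and ATRX, a remodeller that deposits histone H3.3, 13 over 1.90. Of the core and linker histone genes 5 of 82 had weak peaks, with H2AC16 at 24 reads over 4.73, the linker histone gene H1-4 at 21 over 4.39 and H4C11, an H4 gene, at 18 over 5.06. Histone genes are near copies of each other in their coding part, so reads there are uncertain. The H2AC16 summit lay 789 bp upstream of the 5′ end, within 1 kb of an end of H2BC16P. That of H4C11 lay 446 bp past the 3′ end. Pre-mRNA splicing genes numbered 6 of 130, which was 5.66% of those with a peak. LSM2 had 19 reads over 3.38, DHX16 17 over 3.04 and SRSF10 13 over 2.12. Genes of mRNA decay and 3′ end processing numbered 2 of 70, the decapping gene DCP1B and the exosome nuclease gene EXOSC10, with 12 reads each.

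Among metabolic genes, lipid metabolism had 9 of 193 genes, with PIGH, of the first step of GPI anchor synthesis, at 27 reads over 7.09, CYP51A1, the sterol demethylase of cholesterol synthesis, at 20 over 4.73, and DGAT2, which makes triglycerides, at 18 over 3.04. Carbohydrate metabolism and glycosylation had 10 of 225 genes, with pyruvate carboxylase, PC, at 21 reads over 3.71, PGD of the pentose phosphate pathway at 15 over 2.70, and ALG8, with 2 weak peaks, at 12 over 2.28 and 10 over 1.59. Detoxification enzymes had 12 of 176 genes, which was 19.05% of those of the list with a peak. A strong peak was at 49 genes of this list, and 64.2% of it had no peak. ALDH7A1 and CYP20A1 had 16 reads each, over 3.26 and 2.70. The list of solute carriers other than mitochondrial ones had 10 of 343 genes and that of autophagy 1 of 54, ATG7, an E1-like enzyme, with 15 reads over 2.70. The xenobiotic enzyme CYP1A1, named after its values were seen, had 10 reads over 1.35.

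Signalling lists had shares at or below that of all protein-coding genes. The ERK and growth factor list had 7 of 190 genes (3.68%), with SOS1, an exchange factor of RAS, at 24 reads over 4.73 and RPTOR, the scaffold of the mTORC1 kinase, at 13 over 1.97. AREG, a ligand of the EGF receptor named after its values were seen, had 11 reads over 2.199. The list of WNT and TGF-beta signalling had 3 of 118, among them the WNT antagonist DKK1 with 9 reads over 1.67 at its 3′ end. In the list of ETS, bZIP and EGR factors and ETV4 regulators, MAF, a bZIP factor, and EGR2, a zinc finger factor, had weak peaks, with 13 reads over 1.94 and 8 over 1.28. These 2 of 59 genes (3.39%) were near the 3.72% of all protein-coding genes, and 37 genes of the list had strong peaks. Neither of the 2 is an ETS gene, and at such a share this absence is not read as a result. Of adhesion and extracellular matrix genes 9 of 245 had weak peaks, with the tight junction gene CLDN1 at 16 reads over 3.79, 40 bp inside the gene, and COL7A1, the collagen of anchoring fibrils, at 12 over 2.36.

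Keratin, protocadherin, immune, olfactory, germline, homeobox and ion channel lists differed in how many of their genes with a peak had weak peaks. Keratin and epidermal genes had weak peaks at 7 of 183 genes (3.83%), but these were 31.8% of the 22 genes with a peak, and protocadherin genes had 3 of 66, which was 21.4% of those with a peak. For immune ligands and receptors the count was 16 of 470, or 12.9% of those with a peak, with HLA-E at 22 reads over 4.39, the interferon receptor gene IFNAR1 at 17 over 2.81 and TLR5, the flagellin receptor, at 16 over 2.58. KRT77 had 13 reads over 2.03 and KRT37 11 over 1.69. Of 429 olfactory and taste receptor genes 1, OR10H1, had a weak peak, with 8 reads over 1.28, which was 5.26% of those with a peak, and 410 had none. Germline and testis genes had 2 of 263 (3.77% of those with a peak), homeobox genes 6 of 139 (8.22%) and ion channels 8 of 261 (5.97%). The shares of the olfactory, germline and ion channel lists were thus below the 6.37% of all genes with a peak and those of the others above it. The homeobox gene HOXB13 had 2 weak peaks, with 17 reads over 3.04 and 13 over 2.32, and HOXA4 had 2, with 9 and 8 reads, both over 1.35.

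There were 19 genes with 2 weak peaks and none with 3. Among them EML2, which encodes a microtubule-associated protein, shared with SP5 the lowest fold of all weak peaks, 2.45 (13 reads over 4.73), 927 bp inside the gene, and a second peak of 4.64 (24 over 4.39), 66 bp upstream of its 5′ end. ASAH1, the acid ceramidase, had 15 reads over 3.04 and 14 over 3.38, and GPIHBP1, which carries lipoprotein lipase across capillaries, had 10 over 1.28 and 10 over 1.52. The peaks of such a pair were thus near each other in reads in ASAH1 and GPIHBP1 and apart in EML2.

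The distance from the weak peaks to strong binding varied widely. The nearest peak of fold 5 or more was at a median of 17321 bp from the weak summits, within 5 kb in 168 (21.96%) and farther than 100 kb in 48 (6.27%). It was 1579 bp away at KIF11, a spindle motor gene named after its values were seen, and 720392 bp away at HTR1B, a serotonin receptor gene named likewise. A peak of fold 5 or more inside the gene body, over 1 kb from both ends, was present in 248 of the 746 genes (33.2%), in 36.6% of genes with a strong peak at an end and in 33.5% of genes with no peak at an end. The rule used the outermost gene ends, and whether such inner peaks lay at other annotated starts was not tested. The median length was 24180 bp for genes with weak peaks, 30533 bp for strong genes and 16876 bp for genes with no peak at an end. An end of a long non-coding RNA gene lay within 1 kb of 16.9% of weak and 20.9% of strong summits (difference −4.01 points, −6.64 to −1.06).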

How the data were processed

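Chromatin from A549 cells was immunoprecipitated against Flag and sequenced beside an input. Per the submitters' processing notes, Bowtie2 2.4.1, SAMtools, MACS2 2.2.7.1 and deepTools 3.5.0 were used with hg38/GRCh38, and the settings are not given in the sources used here. The antibody is named differently in the labels and the methods. The authors deposited 1 peak list with the fold over control (a ratio with 1 added to both sides), the −log10 p-value, the −log10 q-value, a display score that was not used, and the summit offset. Library depth is not in it. The pileup and control level at each summit were recomputed from fold and p, and all pileups were whole within 0.01. Gene ends came from RefSeq on GRCh38.p14 (chromosomes 1 to 22, X and Y), and strand from the promoter windows, which covered 79.1% of protein-coding genes and none of chromosome 8. Summits were assigned to genes within 1 kb.

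Shares have Wilson and differences Newcombe 95% intervals, pileups exact Poisson intervals. Python 3.11.15, numpy 2.4.6, pandas 2.3.3 and scipy 1.17.1 were used, and scripts were tested on simulated data. Function lists were patterns of gene symbols. The members and lists were chosen with earlier results of these data known. Named genes were the 5 highest and 5 lowest in −log10 q, the 5 peaks nearest to the threshold on either side, up to 4 per list by pileup, all DNA replication members, up to 5 genes with several weak peaks and the genes the study singled out, and a gene of unsure function could be left out. A gene that this rule names is not reported here. Alternatives changed the fold limit, the window, the q minimum, the use of summits, the motif and the genes compared.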

Additional observations from a re-analysis of the deposited data

How the results depend on the processing

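The number of weak peaks followed the limits that define them. It was 310 (305 genes) with a fold below 4, 1253 (1215 genes) with a fold below 6 and 229 (229 genes) with −log10 q of 5 or more, beside 765 (746 genes). Windows of 500 bp and 2 kb, whole intervals in place of summits and the inclusion of genes with a strong peak gave 705 to 1000 peaks. Genes in at least 1 function list numbered 140 with a fold below 4 and 523 with a fold below 6, beside 334. The share at the 5′ end was 90.8% with 500 bp, 83.6% with 2 kb and 93.5% with −log10 q of 5 or more. Its difference from strong peaks turned positive with that q minimum (0.960 points) and against peaks of fold 5 to 7 (3.56 points), the latter an alternative chosen after seeing the data. The motif difference lost its call against the genes of strong peaks at 1 gene only (−2.07 points) and, under summits, against peaks of fold 5 to 7 (−3.39 points), both also chosen after seeing the data. The median control level was 2.96 with −log10 q of 5 or more, where more reads are needed. The causes of the other changes were not tested.

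The pileups of 6 to 32 reads and the single library limit the precision of each peak. No paired analysis was possible because there is 1 immunoprecipitate, whose file already sets it against the 1 input.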
